A study of Solanum lycopersicum with 12 samples.

Results

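The comparison set tomato (Solanum lycopersicum) callus after 16 days of culture on SIM medium against callus after 12 days on the same medium. It used 6 of the 12 small RNA libraries of the study, 3 per day, chosen by the day in the sample titles. The other libraries were 3 from callus at day 14 and 3 from cotyledons, the seed leaves, at day 0. All callus came from cotyledons cut from seedlings 6 days after sowing, and the labels name no mutant, transgene or further agent in any group. The labels do not say how many explants or plants went into a library, nor whether replicates were separate cultures, so p-values measure only the spread between these libraries, which may be technical. A value is the number of small RNA reads that fell on a gene locus and not the level of its messenger RNA. Fewer cells making a small RNA and less of it per cell cannot be told apart in such bulk samples. The loci carry identifiers that could not be linked to gene names, so callus was not checked against marker genes and no locus is given a function or a sequence here.

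Plant small RNAs are cut from longer RNA by Dicer-like enzymes, and their length reflects the enzyme. Many microRNAs and the phased small interfering RNAs that act on messenger RNA are 21 nt long. The 22-nt class, made mainly by another Dicer-like enzyme, includes microRNAs that can start secondary small RNAs from their targets. The 24-nt class comes largely from transposons and other repeats, some of them inside or beside genes, and in Arabidopsis guides DNA methylation. Fragments of messenger RNA that is being degraded have no fixed length. DNA methylation is known to shift in cultured plant tissue, callus included.

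Gene loci received 541688, 520325 and 480127 reads of 18 to 26 nt in the day 16 libraries, against 529570, 657593 and 587292 in the day 12 libraries. The day 14 libraries held 481643 to 698312. A total of 30653 of 34688 loci had a read at day 16 or day 12, and 6729 passed the filter on low counts. On the second principal component day 12 replicate 3, day 14 replicate 1 and day 16 replicate 3 stood apart, at 13.6, 43.1 and 33.1, against -23.0 to -8.27 in the other 6 callus libraries. The labels name no batch, so no within-batch value could be computed. Counting error is only a part of the spread. Summed over loci, squared differences between replicates of a day were 4.99 to 17.7 times those of counting noise. Abundant loci weigh most in that sum, so it does not describe a typical locus.

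Small RNA reads rose at 4 loci at day 16 relative to day 12 and fell at 0, out of 6729 tested (0.0594% called) by edgeR's quasi-likelihood test at an adjusted p of 0.05. At an unadjusted p of 0.05, 571 loci (8.49%) passed, 326 of them higher and 245 lower at day 16. Each of the 4 loci had at least 15 reads in every day 16 library, against at most 18 in any day 12 library and at most 6 in any cotyledon library. None of the 4 had a main read length, meaning a length that holds at least 50% of the locus's reads over the 6 libraries.

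Solyc04g074450.1 had the largest rise of the 4. It received 15, 19 and 27 reads in the day 16 libraries, against 3, 0 and 1 in the day 12 libraries. In CPM (counts scaled to a common library size) with TMM, a factor that centres most loci between libraries, these were 33.0, 37.0 and 58.0 CPM at day 16, against 5.13, 0 and 2.08 CPM at day 12. The lowest day 16 library thus lay well above the highest day 12 library. The mean was 42.7 ± 13.4 CPM at day 16 and 2.41 ± 2.58 CPM at day 12 (SD, n = 3 each), a log2 change of 4.03 (SE 0.71, edgeR adjusted p = 0.0387). In day 14 callus it had 9, 5 and 7 reads, or 14.4 ± 5.47 CPM (SD, n = 3), and in cotyledons 3, 6 and 2 reads. Every day 14 library lay between the day 12 and the day 16 libraries. No length dominated: the most frequent, 21 nt, held 15.4% of the reads at days 16 and 12.

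Solyc00g500353.1 received 61, 45 and 56 reads at day 16, against 7, 15 and 4 at day 12. These were 134, 87.6 and 120 CPM at day 16, against 12.0, 23.7 and 8.34 CPM at day 12. The groups were far apart, with means of 114.1 ± 24 CPM at day 16 and 14.7 ± 8.04 CPM at day 12 (SD, n = 3 each). The log2 change was 2.90 (SE 0.45, edgeR adjusted p = 0.0299). Day 14 libraries held 31, 21 and 12 reads, or 67.4, 36.5 and 25.7 CPM, and cotyledons held 6, 2 and 4 reads. In CPM all 3 lay between those of days 12 and 16, the lowest of them close to the highest day 12 library. The most frequent length, 24 nt, held 19.7% of its reads.

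The other 2 loci that rose are named here after their values were seen. Solyc03g042560.3 received 53, 42 and 49 reads at day 16, against 4, 18 and 6 at day 12. Its means were 101.2 ± 17.8 CPM at day 16 and 15.9 ± 11.2 CPM at day 12 (SD, n = 3 each; log2 change 2.62, SE 0.46, edgeR adjusted p = 0.0387). It moved with Solyc00g500353.1 library by library: of its reads over the 12 libraries, 82.8% had a counterpart of the same length in the same library there, 202 reads in all. The counting of multi-mapping reads is not given in the sources used here, so these may be shared reads, and the pair may stand for 1 source counted at both loci.

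Solyc06g074030.1 was the locus of the 4 with the fewest cotyledon reads, 1, 0 and 0. It received 34, 23 and 30 reads at day 16, against 5, 7 and 2 at day 12. The means were 61.4 ± 15.3 CPM at day 16 and 7.93 ± 3.49 CPM at day 12 (SD, n = 3 each; log2 change 2.87, SE 0.50, edgeR adjusted p = 0.0387). Day 14 libraries held 10, 6 and 6 reads, or 15.0 ± 5.97 CPM (SD, n = 3), nearer to day 12 than to day 16. At most 18.8% of its reads were of 1 length.

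Every library of the comparison weighed on these shallow calls. Without day 12 replicate 2 the count was 2 (Solyc00g500353.1 and Solyc03g042560.3, both at an adjusted p of 0.0247), and without day 16 replicate 2 it was 1 (Solyc00g500353.1, 0.0487). Without any 1 of the other 4 libraries it was 0. Without the 3 libraries that stood apart, Solyc00g500353.1 kept an adjusted p of 0.0422, while the adjusted p was 0.0696 for Solyc03g042560.3, 0.161 for Solyc04g074450.1 and 0.145 for Solyc06g074030.1. In that fit 5 loci were called, 2 higher and 3 lower. With library totals as the scale the count was 0, and the adjusted p of each of the 4 loci was 0.0824.

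The 2 loci with the smallest p among those lower at day 16 did not pass the test. Solyc08g029344.1, unlike the loci that rose, had a main length: 85.5% of its reads at days 16 and 12 were of 24 nt. It received 8, 6 and 2 reads at day 16, against 42, 38 and 14 at day 12. These were 17.6, 11.7 and 4.29 CPM at day 16, against 71.9, 60.1 and 29.2 CPM at day 12, so the libraries did not overlap, and day 12 replicate 3 was the lowest of its day. The log2 difference was -2.25 (SE 0.47, edgeR adjusted p = 0.105), and at 24 nt alone it was -2.32 (SE 0.64, edgeR adjusted p = 0.715). Day 14 libraries held 7, 14 and 14 reads, and cotyledons, where it was highest, 61, 43 and 51. DESeq2 gave an adjusted p of 0.0245. Of its reads over the 12 libraries, 69.7% had a counterpart of the same length in the same library at the locus most like it in counts. By the same measure the share was 43.3% for Solyc04g074450.1, 44.3% for Solyc01g099830.3 and 54% for Solyc06g074030.1. Low counts can coincide, so these shares do not show that reads were shared.

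Solyc01g099830.3 received 10, 12 and 9 reads at day 16, against 40, 37 and 30 at day 12. The libraries within a day lay close together, at 21.6 ± 2.05 CPM for day 16 and 63.2 ± 5 CPM for day 12 (SD, n = 3 each). The log2 difference was -1.54 (SE 0.35, edgeR adjusted p = 0.138). Day 14 libraries held 12, 26 and 15 reads. Its reads had no main length, with at most 15.2% at 1 length, 23 nt.

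**Figure D1:**
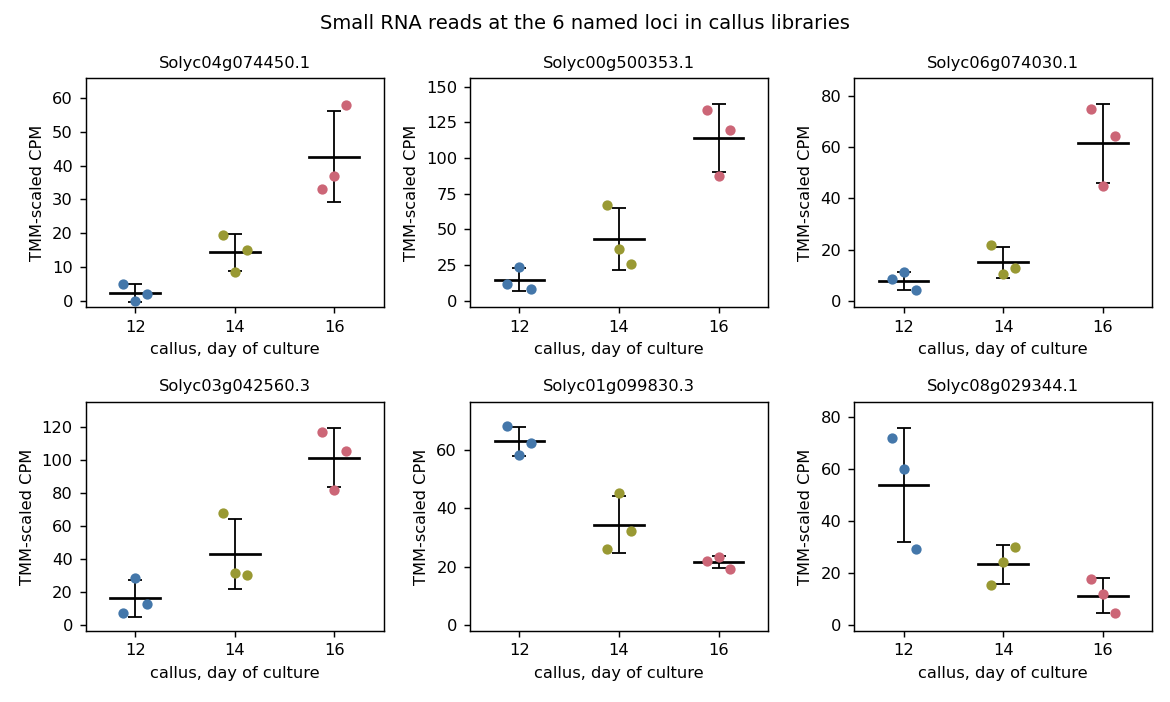
TMM-scaled CPM at the 4 loci that rose and the 2 lower loci, by day of callus culture. Points are libraries (3 per day), horizontal bars are means and vertical bars are SD. The day 14 mean lies between those of days 12 and 16 at all 6 loci.

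Beyond the called loci, 1048 of the 6729 tested loci (15.6%) had day 16 and day 12 libraries that did not overlap in CPM. With no difference between the days, 3 against 3 libraries fail to overlap with a probability of about 0.1, so many such loci need not differ. By the same measure 1054 of the 6729 loci did not overlap between days 14 and 12, nearly the same share. Between days 16 and 14 it was 719 of the 6729, close to the probability of 0.1. These counts are descriptions, with no test. At 584 loci (8.68%) all 3 day 16 libraries lay above all 3 day 12 libraries, and at 464 loci (6.90%) all lay below. Most of these differences were small. The median log2 difference was 0.79 in the set above and -0.88 in the set below. A difference of more than 2-fold was found at 195 loci above and 170 below, and one of more than 4-fold at 34 above and 21 below. Of the 21, 2 had no read at day 16, so their place there rests on fitted values. At a bound from a floor of 3 reads over the group, the less extreme of the 2 came to a log2 difference of -0.97, under 2-fold. With both at their bound the median of the set below was again -0.88. The split between the sets depends on the scale: with library totals in place of TMM, 231 loci lay above and 986 below. The median log2 difference of all tested loci was 0.02 by TMM and -0.26 by library totals, so every difference on the TMM scale is relative to that shift.

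The sets differed in the length of their reads. Of the 584 loci above, 296 (50.7%) had 24 nt as their main length, and 264 (45.2%) had no main length. Of the 464 loci below, 31 (6.68%) had a main length of 24 nt and 401 (86.4%) had none. Among all tested loci 1857 (27.6%) had a main length of 24 nt, 345 (5.13%) one of 21 nt, 64 one of 22 nt, and 4412 (65.6%) none. Loci of 21 nt were few on either side, with 17 above and 25 below. At the larger differences the picture was another: of the 34 loci more than 4-fold above, 5 had a main length of 24 nt and 29 had none, and of the 21 more than 4-fold below, 6 had a main length of 24 nt and 10 had none. These loci were shallow, with a median of 61 reads above and 45 below over the 6 libraries.

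**Figure D2:**
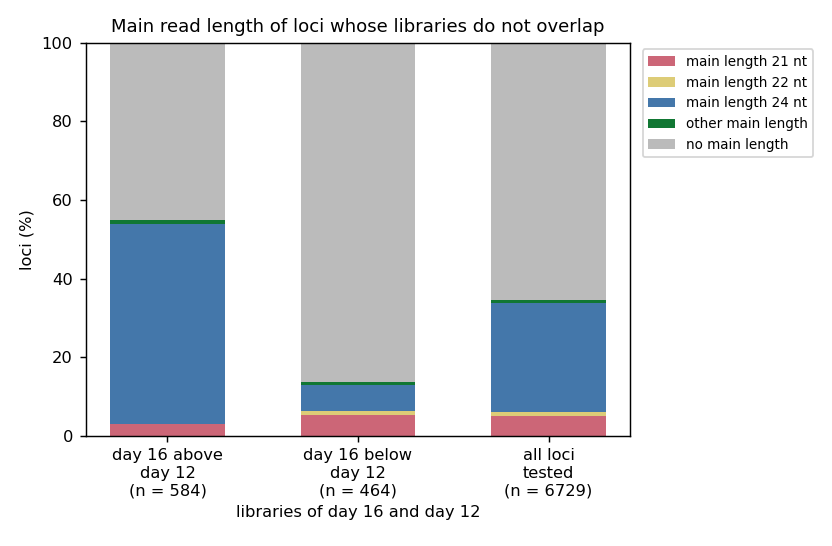
Share of loci (%) by main read length among the loci whose day 16 libraries all lie above day 12, those whose day 16 libraries all lie below, and all tested loci. Loci of 24 nt make up 50.7% of the set above, 6.68% of the set below and 27.6% of all tested loci, by TMM-scaled CPM.

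Loci of 24 nt as a class lay higher at day 16 relative to other loci. Their median log2 difference was 0.32 on the TMM scale, with 76.0% of the 1857 loci higher at day 16, 15.9% wholly above day 12 and 1.67% wholly below. The 4412 loci without a main length had a median of -0.11, with 41.1% higher, 5.98% wholly above and 9.09% wholly below. Loci of 21 nt had a median of 0.01 and loci of 22 nt one of -0.08. On the scale of library totals the 24-nt median was 0.05, that of loci without a main length -0.39, that of 21-nt loci -0.28 and that of 22-nt loci -0.33. The 24-nt loci thus lay above the loci without a main length, at a median above 0 by TMM and near 0 by library totals. A change of scale shifts the classes nearly alike, so the scales are not separate evidence for this gap. These medians and shares are descriptions of lists, with no test, and the classes were set from reads of the same 6 libraries.

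**Figure D3:**
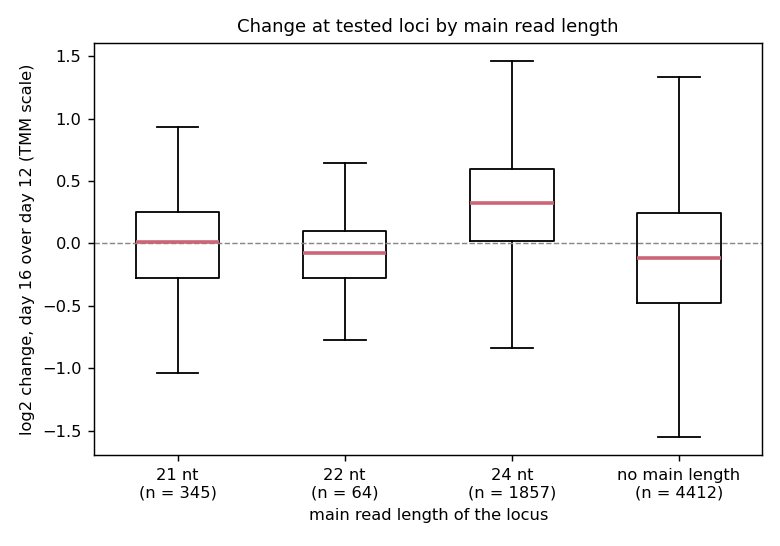
Log2 difference of day 16 over day 12 at tested loci by main read length, on the TMM scale. Boxes span the quartiles with the median in red, whiskers reach the farthest locus within 1.5 quartile ranges, and farther loci are not drawn. The 24-nt box lies above 0 (median 0.32), whereas on the scale of library totals its median is 0.05.

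To keep the class apart from the libraries compared, loci were also classed by their day 14 reads alone. The 2033 loci of 24 nt then had a median log2 difference of 0.32 by TMM and 0.04 by library totals, and the 3979 loci without a main length had -0.12 and -0.39. For each library the median log2 CPM of the loci without a main length was subtracted from that of the 24-nt loci. The scaling of a library cancels in this measure, apart from its effect on a prior count of 2 added before the log. The measure was chosen after values were seen. It came to 0.55, 0.39 and 0.34 in the day 16 libraries, against -0.15, 0.13 and 0.34 in the day 12 libraries. Day 12 replicate 3 lay next to the day 16 libraries, and the other 2 day 12 libraries lay below them. The means were 0.43 ± 0.11 at day 16 and 0.11 ± 0.25 at day 12 (SD, n = 3 each), a difference of 0.32 with an exact two-sided permutation p of 0.10, the smallest that 3 against 3 can give. Without day 12 replicate 1 the difference was 0.19. The day 14 libraries, which also set these classes, were at 0.66, 0.41 and 0.44, as high as those of day 16. The cotyledon libraries were at 1.00, 0.52 and 0.68. With loci classed by cotyledon reads, the means were 0.567 at day 14, 0.461 at day 16 and 0.135 at day 12.

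**Figure D4:**
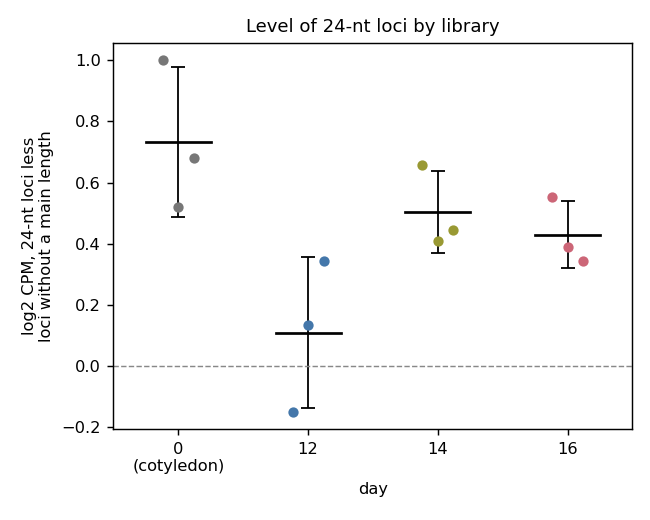
Median log2 CPM of 24-nt loci less that of loci without a main length, in each library by day. The classes were set by the reads of the day 14 libraries, which are also drawn. Points are libraries (3 per day), horizontal bars are means and vertical bars are SD. The day 12 mean (0.11) is the lowest of the 4 groups, and day 12 replicate 3 (0.34) lies level with the lowest day 16 library.

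Day 14 lay between the other days at most loci whose libraries did not overlap. Its mean CPM was between the day 16 and day 12 means at 376 of the 584 loci above (64.4%) and 320 of the 464 below (69.0%), against 2409 of all 6729 tested loci (35.8%). It had passed the day 16 mean at 23.5% of the loci above and 17.2% of those below. Loci with a wide gap between days 12 and 16 leave more room for a value between them, so the larger share is no test of a gradual course. At the median locus above, day 14 had covered 66.7% of the way to day 16, and at the median locus below 63.2%. At the 4 called loci the median was 29.3%. At the 34 loci more than 4-fold above it was 30%, and the day 14 mean was between at 33 of them. At the 21 loci more than 4-fold below, the day 14 mean was between at 14 (66.7%) and on the far side of day 12 at 6 (28.6%), and at none of them did all 3 day 14 libraries lie between. All 3 day 14 libraries lay between both groups at 10 loci above and 7 below, including 3 of the 4 called loci.

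Neither neighbouring step gave a call by edgeR. Day 14 against day 12 had 0 of 6729 loci called by edgeR (0%, smallest adjusted p 0.154), with 602 at an unadjusted p of 0.05 and 19 called by DESeq2. Day 16 against day 14 had 0 called by edgeR (0%, smallest adjusted p 0.336), with 356 at an unadjusted p of 0.05 and 2 called by DESeq2. The 356 of 6729 loci are close to the share of 0.05 that passes with no difference, and the 602 lie above it. The median difference of 24-nt loci was 0.36 from day 12 to day 14 and -0.05 from day 14 to day 16, and that of loci without a main length was -0.15 and 0.02 over the same steps (log2, TMM). These steps share libraries with each other and with day 16 against day 12.

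Tested length by length, no locus was called at any length from 18 to 26 nt by edgeR (0% of 93 to 2358 loci tested per length). The smallest adjusted p was 0.084 at 19 nt and 0.0893 at 22 nt. At an unadjusted p of 0.05, 3 of 93 loci passed at 26 nt, 20 of 214 at 19 nt and 123 of 2358 at 24 nt. The count was largest at 24 nt, where the most loci were tested, but the share was smaller there than at 19 nt. In the authors' deposited table, which tests each length with DESeq2, 0 loci had an adjusted p of 0.05 or less for day 16 against day 12, and the smallest adjusted p was 0.164 at 22 nt and 0.262 at 24 nt. For the neighbouring steps that table held 1 locus at 21 nt for day 14 against day 12 (DESeq2 adjusted p = 0.00671). It held 1 at 20 nt for day 16 against day 14 (DESeq2 adjusted p = 0.014). Each was lower at the later day. By library totals the 22-nt reads were lower at day 16 at 80.3% of 823 loci (median log2 difference -0.44) and the 21-nt reads at 73.7% of 1072 loci (-0.27), while the 24-nt reads were lower at 49.8% of 2522 loci (median 0.00). Reads of 18, 19, 20 and 26 nt were lower at 71.7% to 75.2% of loci, with medians of -0.39 to -0.35, near that of 22 nt. Those of 23 and 25 nt were lower at 59.2% and 60.6%, with medians of -0.11 and -0.15. All tested loci summed over lengths shifted by -0.26 on this scale, which the 21-nt value barely exceeds. TMM within a length, which centres most loci, gave medians of -0.01 for 22 nt, -0.02 for 21 nt and 0.00 for 24 nt. On that scale 50 of 781 loci lay wholly above and 39 wholly below at 22 nt (11.4% without overlap). This is close to the share given above for no difference between the days. The other lengths had 5.38% (26 nt) to 16.4% (19 nt) without overlap.

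The balance of 24-nt and 21-nt reads inside loci was tested in 5571 loci with at least 10 reads of each length, with a term for each library so that scaling cancels. No locus was called (0%, edgeR, smallest adjusted p 0.705). At an unadjusted p of 0.05, 92 loci lay towards 24 nt and 76 towards 21 nt at day 16. Together they are a smaller share of the 5571 loci than the 0.05 that passes with no change. The median log2 difference was 0.06 towards 24 nt, with 52.4% of loci on that side. With at least 20 reads (2657 loci) or 100 reads (456 loci) of each length there was again no call.

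Over whole libraries, the deposited TPM give sense and antisense gene reads of each length relative to a library total that is larger than the gene reads. None of the 18 length and strand classes passed limma's test for day 16 against day 12 (0% called, smallest adjusted p 0.114), and 3 passed at an unadjusted p of 0.05. In 5 classes (27.8%) every day 16 library lay below every day 12 library: sense reads of 20, 22 and 23 nt, and antisense reads of 21 and 22 nt. No class was wholly above.

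The 22-nt class had the smallest p-values of the 18 classes, on both strands. Sense 22-nt reads were at 11175, 11583 and 11766 TPM at day 16, against 14334, 14563 and 14732 TPM at day 12. The log2 difference was -0.34 (SE 0.12, limma adjusted p = 0.114). Antisense 22-nt reads were at 4956, 5379 and 5130 TPM at day 16, against 6896, 7387 and 6601 TPM at day 12, a log2 difference of -0.43 (SE 0.15, limma adjusted p = 0.114). The libraries within each day were close, and the groups were well separated. The 12 libraries together gave the spread in that fit. With the 9 callus libraries alone the classes of 22 nt passed on both strands and no other did, at adjusted p = 0.0267 for sense and 0.0143 for antisense reads (limma), so this call depends on which libraries set the spread. On the reads recovered from the TPM, edgeR called 0 classes (smallest adjusted p 0.073).

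Day 14 was already at the day 16 level for 22 nt, with 10448, 12722 and 11698 TPM of sense reads and 4692, 5258 and 5548 TPM of antisense reads. Day 14 against day 12 gave -0.33 for sense and -0.43 for antisense reads (log2, limma adjusted p = 0.0819 for each), and day 16 against day 14 gave -0.01 (adjusted p = 0.99) for sense reads. Shorter reads had larger differences by day 14 at the same adjusted p. These were -0.984, -0.806 and -0.595 for sense 18, 19 and 20 nt, and -0.865 for antisense 18 nt. Day 16 against day 14 gave 0.561, 0.347, 0.188 and 0.64 for them (limma adjusted p = 0.728 for each). For day 16 against day 12, sense reads of 18 to 20 nt also differed more (-0.459 to -0.407) than those of 22 nt, with larger p-values. A slope over days 12, 14 and 16 passed for 0 of 18 classes (0%, limma, smallest adjusted p 0.0786). The 18-class test for day 14 against day 12 had 0 calls (0%) and 6 classes at an unadjusted p of 0.05, and that for day 16 against day 14 had 0 calls (0%) and 0 classes at that level.

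The 24-nt libraries of the days overlapped on both strands. Sense 24-nt reads averaged 13861 ± 731 TPM at day 16 and 14397 ± 291 TPM at day 12, and antisense 24-nt reads 12296 ± 352 TPM at day 16 and 11793 ± 186 TPM at day 12 (SD, n = 3 each). The log2 differences were -0.06 (SE 0.11) and 0.06 (SE 0.11). Sense 21-nt reads varied most in amount, with 38255, 32197 and 37494 TPM at day 16, against 37763, 40413 and 56307 TPM at day 12. Of the day 12 values only that of replicate 3 stood far above day 16.

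**Figure D5:**
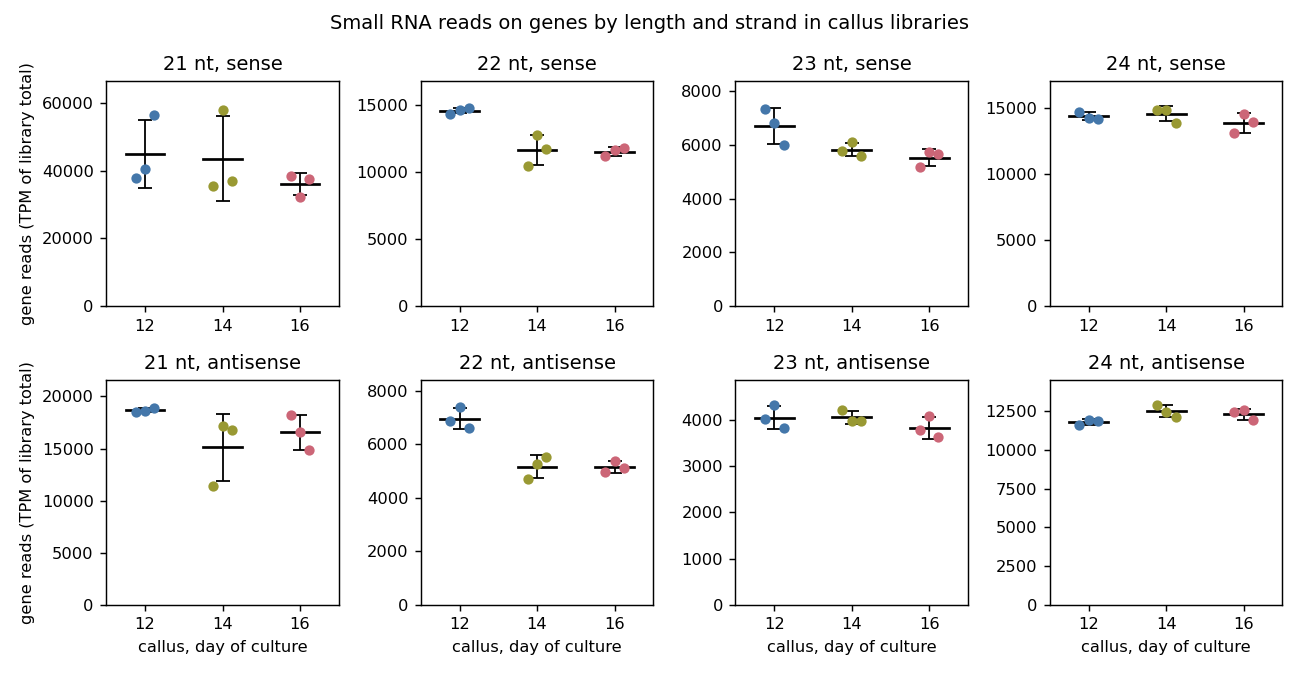
Sense (upper row) and antisense (lower row) gene reads of 21, 22, 23 and 24 nt in TPM of the library total, by day of callus culture. Points are libraries (3 per day), horizontal bars are means and vertical bars are SD. The 22-nt reads of all day 14 and day 16 libraries lie below all day 12 libraries on both strands, and no class passed limma's test over 12 libraries.

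Gene reads as a whole took a smaller share of the library total at day 16. They made up 12.1%, 11.8% and 12.1% of it at day 16, against 13.9%, 13.8% and 14.9% at day 12, without overlap. The difference of -2.16 percentage points had an exact two-sided permutation p of 0.10, the smallest possible. The day 14 libraries were at 11.3%, 14.6% and 12.0%, so 1 of the 3 was within the day 12 range. An exact permutation of the 9 callus libraries over the days gave p = 0.0452 for the slope and 0.452 adjusted over the 11 measures tested. What the library total counts is not given in the sources used here.

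Within the gene reads, the 24-nt share was 21%, 23% and 21.3% at day 16, against 19%, 19% and 17.5% at day 12, again without overlap (difference 3.28 points, exact permutation p = 0.10). The day 14 libraries were at 24.7%, 18.8% and 21.7%, so that replicate 2 lay within the day 12 range. As a share of the library total the 24-nt reads differed by -0.00333 points, so the sign of the difference depends on the denominator. The 22-nt share was 13.3%, 14.4% and 13.9% at day 16, against 15.3%, 15.9% and 14.3% at day 12, which overlap slightly (difference -1.32 points, exact permutation p = 0.20). The 21-nt share averaged 43.7 ± 2.57% at day 16 and 44.7 ± 5.25% at day 12 (SD, n = 3 each; exact permutation p = 0.90), and its difference of -0.98 points was 1.98 without day 12 replicate 3 and 0.14 without day 16 replicate 2.

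A few loci carried much of the 21-nt signal. The 10 most abundant loci held 33.9%, 27.6% and 29.7% of gene reads at day 16, against 25.3%, 29.7% and 38.7% at day 12, and none of them was called. The pair Solyc12g040470.2 and Solyc03g119020.2, singled out after their values were seen, had nearly the same counts in every library, with 94.4% of reads at 21 nt, and may be 1 source counted at both loci. In CPM of gene reads, without TMM, Solyc12g040470.2 had 10305, 9652 and 36680 at day 16, against 4134, 18977 and 81321 at day 12 (log2 difference -1.04, SE 0.78, edgeR adjusted p = 0.74). At day 16 and at day 12, replicate 3, which stood apart, was by far the highest library. At day 14 the locus had 71808, 104608 and 28701, and the highest library was replicate 2 and not replicate 1, which stood apart. Solyc11g009010.2, also named after its values were seen, had 41048, 35657 and 32298 at day 16, against 25256, 29330 and 25628 at day 12, without overlap (log2 difference 0.48, SE 0.24, edgeR adjusted p = 0.599), with 92.1% of its reads at 21 nt.

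With these 10 loci left out, both length shares were separated between the days. The 10 held 35.1%, 27% and 26.2% of 22-nt gene reads at day 16, against 21.4%, 27.2% and 29.9% at day 12. Among them Solyc12g099270.2 had 73.3% of its reads at 22 nt. It averaged 27630 CPM of gene reads at day 16 and 21489 at day 12, with overlap (log2 difference 0.40, SE 0.26, edgeR adjusted p = 0.7). Its part in the separation was not tested. The 22-nt share was 13.1%, 14.5% and 14.6% at day 16, against 16.1%, 16.5% and 16.4% at day 12. The 24-nt share was 31.2%, 31.3% and 29.9% at day 16, against 24.9%, 26.5% and 28.1% at day 12. The day 14 libraries then lay with day 16 for 22 nt, at 14.1%, 14.3% and 14.4%, and at or above it for 24 nt, at 36.2%, 31.3% and 30.9%.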

How the data were processed

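Small RNA libraries were made from total RNA by ligating adapters with T4 RNA ligases, reverse transcription, PCR and gel selection, per the labels' protocols. Fastp, Bowtie and DESeq2 were used, per the submitters' processing notes; versions, settings, genome build, strand and the treatment of multi-mapping reads are not given in the sources used here. The authors deposited raw counts per gene locus in 108 columns (9 read lengths in 12 libraries), TPM by length and strand, and a DESeq2 table per length with log2 fold changes and p-values, per the file headers. With 1 recovered total per library (3817383 to 4774767 at days 16 and 12), each of the 216 TPM values gave a whole number of reads to within 0.05; other per-sample columns numbered 0.

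Counts were summed over 18 to 26 nt, or kept by length, and tested in R 4.3.3 with edgeR 4.0.16 (quasi-likelihood, all 12 libraries, TMM, filterByExpr, Benjamini-Hochberg at 0.05). The common biological coefficient of variation was 0.333, and the median tested locus had 177 reads over the 12 libraries, so single low loci are imprecise. The SE is the log2 change over the square root of F. TPM classes were tested with limma 3.58.1 on log2(TPM + 1); 18 classes are few for a shared variance. DESeq2 1.42.0 was an alternative. Single values per library were tested by exact two-sided permutation. Scripts were tested on simulated data. Reads carry no molecular identifiers and are not independent molecules.

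Loci named were, in each direction, the 2 with no overlap and a mean of at least 10 CPM, those past the test first by size of change and then by smallest p. The comparison, lists and rules were chosen with earlier results of these data known. Lists of annotated genes could not be used, since 0 identifiers matched the RefSeq table. Alternatives were other scaling (RLE, library totals), no filter, other sets of libraries, a replicate block, other pseudocounts and leaving out libraries; those for single libraries of day 14, for loci without overlap and for the level of 24-nt loci, leaving out the 3 that stood apart in the TPM classes, the minimum of 100 reads within loci and the count test on recovered reads were added after seeing the data.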

Additional observations from a re-analysis of the deposited data

How the results depend on the processing

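Loci called for day 16 against day 12 (4) numbered 13 with DESeq2, 51 without the filter, 0 with library totals, 0 in the 9 callus libraries, and 0 to 2 without 1 library. For day 14 against day 12 (0) they numbered 19 with DESeq2, 36 without the filter and 0 to 1 without 1 library, and for day 16 against day 14 (0) 2, 32 and 0 to 2, with 11 when the 3 libraries that stood apart were left out. The replicate block, fitted with the replicate numbers, gave 0 calls for day 16 against day 12. Same-numbered libraries of days 16 and 12 correlated at -0.02, 0.12 and 0.20 in their deviations from the day means. Day 16 replicates 2 and 3 correlated best with the day 12 library of the same number, and day 16 replicate 1 with day 12 replicate 2 (0.12). Correlations so few and weak cannot decide whether the numbers pair the samples.

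Loci wholly above numbered 231 with library totals, 1481 without the filter, 1471 without the 3 libraries, and 873 to 1130 without 1 library; loci wholly below numbered 986, 1509, 1643, and 801 to 1088. Fewer libraries overlap less by construction. Locus and length pairs called (0) numbered 1 with library totals and 0 to 2 without 1 library, loci with a changed 24-nt to 21-nt balance 0 to 2, and TPM classes 2 in the callus libraries.

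Differences in length shares changed sign with 1 library left out, over -0.574 to 0.113 points for 18 nt, -0.707 to 0.00555 for 19 nt, -3.02 to 1.98 for 21 nt, -0.318 to 0.459 for 23 nt, -0.329 to 0.159 for 25 nt and -0.285 to 0.12 for 26 nt. As shares of library totals 23 nt gave -0.139 and 24 nt -0.00333. Antisense TPM ranged from -0.0975 to 0.0453 (25 nt) and -0.177 to 0.0554 (26 nt) in log2 change, and from -0.0258 to 0.00719 and -0.0457 to 0.00787 in log2 slope per day. The cause of these moves was not tested. Of the 6 named loci, none changed sign under any of 14 alternatives, and the number of these in which it passed was 7 for Solyc00g500353.1, 5 for Solyc03g042560.3, 4 for Solyc06g074030.1, 3 for Solyc04g074450.1, 2 for Solyc08g029344.1 and 0 for Solyc01g099830.3. Depth limits most statements on single loci.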
